A study of Mus musculus with 27 samples.

Results

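The respiratory chain genes were all rows of the count table with symbols spelled like mitochondrial or nuclear subunits of complexes I to V. The symbols were those starting mt-Nd, mt-Co, mt-Cytb or mt-Atp, the numbered Ndufa, Ndufb, Ndufc, Ndufs and Ndufv genes, and Sdha to Sdhd. Symbols starting Uqcr or Atp5, and the Cox4 to Cox8 genes that carry a letter from a to c, completed the rule. This gave 97 of the 33924 genes in the table, 13 encoded by mitochondrial DNA and 84 by nuclear genes. The rule used names only and no measured value. Not every member need be a subunit, and Atp5l-ps1, counted under complex V, has the symbol of a pseudogene. Complex I had 7 mitochondrial and 35 nuclear members, complex II 4 nuclear, complex III 1 and 8, complex IV 3 and 18, and complex V 2 and 19. Cox4i1, Cox4i2, Cyc1 and Cycs fall outside the spelling of the rule and are given with a list of partner genes.

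The respiratory chain passes electrons from NADH (complex I) and succinate (complex II) through complexes III and IV to oxygen and pumps protons across the inner mitochondrial membrane, and complex V uses the gradient to make ATP. Complex II is built from nuclear genes alone, whereas the other complexes combine subunits from both genomes, so that 2 sets of transcripts made in different compartments must be assembled together. Mitochondrial mRNAs are cut from long transcripts of the circular genome, and nuclear subunit genes are known for promoters bound by NRF1, by ETS-family factors such as GABP, and by YY1.

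RNA was sequenced from 12 mouse thyroid tumor cell lines, each derived from a dissected tumor and carrying Braf(V600E), the active form of the kinase. There were 3 lines with Braf(V600E) alone, called Braf here. A further 3 lines each had also lost Arid1a, Arid2 or Smarcb1 by knockout (KO). These genes encode parts of SWI/SNF, a complex that moves and evicts nucleosomes. Each line gave a library in vehicle, labelled as 40% Trappsol, and a library after 8 days with 300 nM CH5126766 (CKI), a RAF and MEK inhibitor; bovine TSH is named in the protocol without a clear arm. The other 3 libraries are labelled wildtype with no treatment, and their source is given in the same words as for the tumor lines. In these 3 libraries thyroglobulin alone took 20.7 to 29% of all counts. They also held markers of further tissues: all 8 skeletal muscle markers (summed 1880 to 4040 CPM), all 4 brown fat markers (221 to 734 CPM) and all 4 adipocyte markers (912 to 2760 CPM) were above 1 CPM in every wildtype library. The same held for the 2 C cell markers (1970 to 3680 CPM) and the 3 fibroblast markers (981 to 2230 CPM). It also held for the 3 endothelium markers (333 to 514 CPM) and the 2 red blood cell markers (209 to 596 CPM). Parathyroid markers summed to 69.4 to 1980 CPM and leukocyte markers to 61.4 to 99.8 CPM. In the vehicle Braf lines the muscle markers summed to 2.01 to 2.89 CPM. CPM is the usual depth-scaled count, computed here on library sizes with edgeR's TMM factors.

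Total counts lay between 18417255 and 27257703 in 25 libraries. Among Smarcb1 KO lines, BS53958 and BS53965 had shallower libraries under CKI, with 11684983 and 2884130 counts, and stood apart from the other 25 in the mitochondrial genes described below. Smarcb1 was at 0.0475 to 3.27 CPM in the Smarcb1 KO libraries and at 67.9 to 99.1 CPM in all other libraries. Arid1a was at 62.7 to 96.1 CPM in the Arid1a KO libraries, against 118 to 139 CPM in the Braf lines. Arid2 was not lower in the lines labelled Arid2 KO (78.2 to 175 CPM) than in the Braf lines (87.9 to 130 CPM); a count over the whole gene does not check the loss of part of it. In Arid2 KO line AB52980 the muscle markers summed to 255 CPM in vehicle and 2420 CPM under CKI, against 1.5 to 4.25 CPM in the other libraries of that genotype.

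The promoters of nuclear members gave a first view of what the members share beyond their names. Of the 84 nuclear members, 69 were matched to promoter windows of 250 bases before to 50 bases after the start in the RefSeq table for GRCm38.p6. In these, 5 motifs were searched on both strands, and a gene held a motif if any of its windows did. The NRF1 motif, GCGCA and GCGC with any base between them, was in 17 of the 69 members (24.6%), against 5.19% of the 27025 genes in the table. The ETS motif CCGGAAG was in 16 (23.2% against 9.93%) and the YY1 motif AAGATGGCG in 8 (11.6% against 1.64%), whereas the E-box CAGCTG was in 6 (8.7% against 18.3%) and TATAAA in 7 (10.1% against 15.7%). These are matches of letters and not measured binding. The stretches of 100 bases below are shown 5′ to 3′ on the strand of the gene, with the match in capitals. The first 3 are NRF1 motif holders of complexes I and V whose RNA differed between wildtype and Braf lines. They lie at chr16:37654505-37654604 for Ndufb4, chr6:24527662-24527761 for Ndufa5 and chr11:115420006-115420105 for Atp5h, all on the minus strand. The last 2 belong to the muscle and brown fat isoforms of complex IV: Cox7a1 at chr7:30184071-30184170 on the plus strand, which holds none of the 5 motifs in this stretch, and Cox8b at chr7:140900447-140900546 on the minus strand, with an E-box.
Ndufb4: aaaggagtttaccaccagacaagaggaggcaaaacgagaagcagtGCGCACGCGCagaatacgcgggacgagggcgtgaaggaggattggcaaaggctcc
Ndufa5: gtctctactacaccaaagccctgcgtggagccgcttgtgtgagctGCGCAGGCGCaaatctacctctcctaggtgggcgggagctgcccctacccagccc
Atp5h: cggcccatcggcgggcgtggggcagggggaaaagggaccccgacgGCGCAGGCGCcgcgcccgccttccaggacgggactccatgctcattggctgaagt
Cox7a1: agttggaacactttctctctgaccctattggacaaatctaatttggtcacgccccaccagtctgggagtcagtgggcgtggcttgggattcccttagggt
Cox8b: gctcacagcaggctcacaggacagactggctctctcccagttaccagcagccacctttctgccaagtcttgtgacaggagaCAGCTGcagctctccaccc

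Mitochondrially encoded members were counted unevenly along their genome. On the GRCm38 mitochondrial genome (GENCODE M21 annotation) the order runs from mt-Nd1 at chrM:2751-3707 through mt-Nd2, mt-Co1 (chrM:5328-6872), mt-Co2, mt-Atp8, mt-Atp6, mt-Co3, mt-Nd3 and mt-Nd4l to mt-Nd4 (chrM:10167-11544), mt-Nd5, mt-Nd6 and mt-Cytb (chrM:14145-15288). The 7 genes mt-Nd1, mt-Nd2, mt-Co1, mt-Nd4, mt-Nd5, mt-Nd6 and mt-Cytb held nearly all mitochondrial counts; mt-Co1, the catalytic subunit of complex IV, took 35.6% and mt-Cytb, the mitochondrial subunit of complex III, 20.9%. The 6 neighbouring genes from mt-Co2 at chrM:7013-7696 to mt-Nd4l at chrM:9877-10173 were at or near 0 in 25 libraries: over all 25 together they held 7 counts (mt-Co2), 1 (mt-Atp8), 2 (mt-Atp6), 4 (mt-Co3), 1 (mt-Nd3) and 0 (mt-Nd4l). This stretch lies between mt-Co1 and mt-Nd4, which were counted in every library. In the Smarcb1 KO CKI library of BS53958 the same genes held 943, 236, 785, 952, 98 and 42 counts, and in that of BS53965 they held 224, 65, 215, 232, 27 and 11. In all, 16 genes, mt-Nd4l among them, had counts in both of these libraries and were at 0 in the remaining 25, and 14 of them have symbols of predicted genes or pseudogenes. The mouse nuclear genome is known to carry a near-identical copy of part of the mitochondrial genome, and how reads with several matches were counted is not given in the sources used here; its part in the result was not tested. The 6 genes were kept in the sums and did not pass the filter on low counts in the fits of 24 or 27 libraries, so complex V has no mitochondrial member in those tests and complex IV only mt-Co1. Some alternatives did test them. mt-Nd6 lies on the strand opposite to the other genes and overlaps the end of mt-Nd5, and the strand setting of the counting is not given, so these genes are not cleanly separated.

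**Figure D1:**
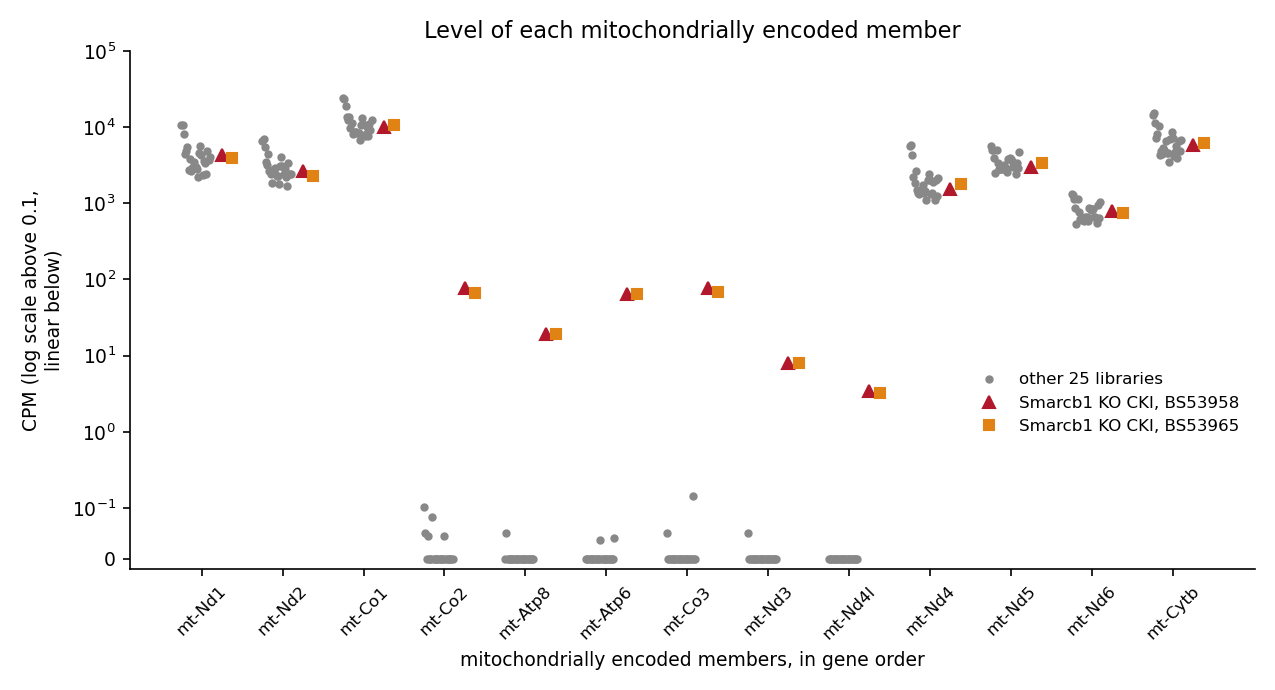
Level of the 13 mitochondrially encoded members in gene order, in CPM on an axis that is logarithmic above 0.1 and linear below; grey points are 25 libraries and the coloured symbols are lines BS53958 and BS53965 (Smarcb1 KO) under CKI. The 6 genes from mt-Co2 to mt-Nd4l sit at or near 0 in the grey libraries and between 3.27 and 78.4 CPM in the coloured ones.

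Per kilobase of gene, the 7 counted mitochondrial genes kept a similar order in wildtype and Braf vehicle libraries. In Braf vehicle mt-Co1 stood at 8440 ± 468 CPM per kb (SD, n = 3), mt-Cytb at 7440 ± 1330, mt-Nd1 at 5110 ± 532 and mt-Nd2 at 3550 ± 639. Below them came mt-Nd5 at 2080 ± 662, mt-Nd6 at 1630 ± 577 and mt-Nd4 at 1620 ± 283 CPM per kb, which did not differ beyond their spread. The neighbours mt-Co1 and mt-Cytb also lay within their spread. In wildtype the levels were 14500 ± 1830 CPM per kb for mt-Co1, 11900 ± 1870 for mt-Cytb and 10200 ± 1490 for mt-Nd1, and mt-Nd4 (3810 ± 623) stood above mt-Nd5 (2850 ± 199).

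On average, wildtype libraries devoted more of their counts to the respiratory chain than any tumor line group. The 13 mitochondrial members summed to 6.09, 6.26 and 4.56% of counts in wildtype and to 3.68, 3.49 and 3.81% in Braf vehicle. The 84 nuclear members summed to 1.17 ± 0.215% in wildtype and 0.793 ± 0.122% in Braf vehicle (SD, n = 3 each). Neither sum overlapped between these 2 groups. Because both genomes' sums were lower, the log2 ratio of mitochondrial to nuclear counts was 2.27 ± 0.135 in wildtype and 2.22 ± 0.288 in Braf vehicle, and the libraries overlapped. The direction of this difference was not stable: it was -0.05 by sums, 0.29 by mean log2 CPM, and between -0.2 and 0.09 when single libraries were left out. The mean log2 CPM weighs all members that passed the filter on low counts alike. It includes Cox8b and Cox6b2, which passed only through the wildtype libraries, and their part in the value of 0.29 was not tested. In bulk libraries fewer cells of a type and less RNA per cell cannot be told apart.

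**Figure D2:**
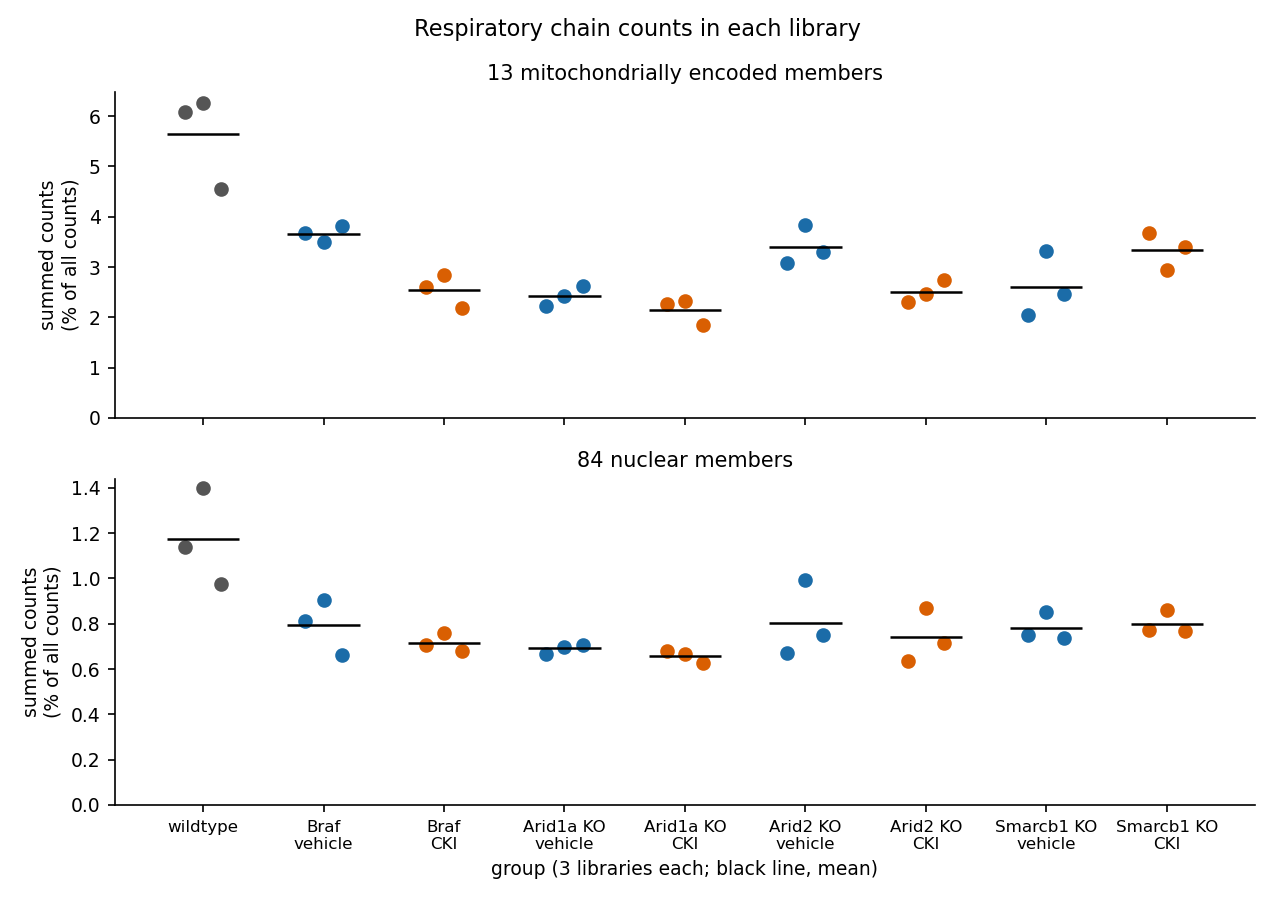
Summed counts of the mitochondrial (upper) and nuclear (lower) members as a percent of all counts in each of 27 libraries, 3 per group, with the group mean as a black line. Wildtype libraries lie highest in the upper panel, in the lower panel Arid2 KO line AB52980 in vehicle (0.991%) lies above the lowest wildtype library (0.977%), and in the upper panel all CKI libraries of the Braf and Arid2 KO lines lie below the vehicle libraries of the same genotype.

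Setting Braf vehicle against wildtype asks how the tumor lines differ from libraries of the unmutated genotype. Of the 97 members, 88 passed the filter on low counts (7 mitochondrial, 81 nuclear). At an edgeR adjusted p under 0.05, 68 were lower in Braf vehicle and 0 were higher, whereas 22.8% of the 16821 genes tested were lower and 23.7% higher. Cox8b and Cox6b2 passed the filter only through the wildtype libraries, where they were high, so their difference was fixed by the filter. Leaving out genes that passed only through the group where they were high, 66 of 86 members were lower and 0 higher, against 18.1% and 25.4% of 15540 genes. The libraries of the groups did not overlap for 73 members that were lower and 1 that was higher, against 33.1% and 28.7% of all genes. Median log2 changes over those 86 were -0.78 for mitochondrial and -0.87 for nuclear members, against 0.12 for the 15540 genes and 0.02 for all genes tested. Of the 68, 52 passed in every alternative run and 16, Cox8b and Cox6b2 among them, missed the threshold in at least 1. With size factors of the relative log expression (RLE) type, the median of all genes moved to -0.14, those of the members to -0.94 and -1.04, and 75 members were lower. The wildtype libraries differ from the lines in their makeup as given above, and the part of the muscle, fat and other markers in these differences was not tested.

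Complex I, which oxidises NADH, was lower in the Braf lines for 31 of its 35 nuclear members, with a median log2 change of -0.99. Ndufb8, an accessory subunit of its membrane arm, was at 273, 413 and 227 CPM in wildtype and at 77.3, 90.3 and 71.1 CPM in Braf vehicle. Every wildtype library was above every Braf library, and the log2 change was -1.93 ± 0.22 (SE, adjusted p = 2.05e-06). Ndufb4, another membrane arm subunit and a holder of the NRF1 motif printed above, stood at 21.8, 23.9 and 16.1 CPM against 4.56, 5.51 and 5.11 CPM. Its log2 change was -2.02 ± 0.23 (adjusted p = 2.29e-06), the furthest from 0 in complex I. Ndufa5 (-1.84 ± 0.22) and Ndufa1 (-1.84 ± 0.22), which sit in the matrix arm and the membrane arm, and Ndufc2 (-1.12 ± 0.13) were lower by adjusted p-values of 3.11e-06 to 3.51e-06. Among the nuclear core subunits, which carry the flavin and the iron-sulfur clusters, Ndufv2 (-1.26 ± 0.20), Ndufs3 (-1.0 ± 0.18), Ndufs7 (-0.90 ± 0.22), Ndufv1 (-0.82 ± 0.20) and Ndufs8 (-0.79 ± 0.13) were lower. Ndufs1 did not pass, with a log2 change of -0.29 ± 0.17 (adjusted p = 0.179). Among mitochondrial subunits of complex I, mt-Nd4 fell from 5610, 5870 and 4270 CPM to 2230, 1840 and 2620 CPM (-1.23 ± 0.23, adjusted p = 0.000238). mt-Nd1 (-1.0 ± 0.24), mt-Nd2 (-0.78 ± 0.22) and mt-Nd6 (-0.55 ± 0.22, adjusted p = 0.0478, libraries overlapping) were lower as well, and mt-Nd5 did not pass (-0.46 ± 0.21, adjusted p = 0.0815). Of 12 alternatives mt-Nd6 missed the threshold in 7 and mt-Nd5 passed it in 4, so these genes are not set apart from each other.

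All 4 subunits of complex II, the succinate dehydrogenase of the citric acid cycle, were lower in the Braf lines. Sdha, the flavoprotein, was at 447, 547 and 446 CPM in wildtype and 293, 214 and 316 CPM in Braf vehicle (-0.81 ± 0.18, adjusted p = 0.00105). Sdhb, the iron-sulfur subunit, went from 137, 195 and 131 CPM to 64, 60.5 and 68.4 CPM (-1.26 ± 0.28, adjusted p = 0.00132). The membrane anchors Sdhc (-0.71 ± 0.17) and Sdhd (-0.74 ± 0.22) were also lower, and none of the 4 genes overlapped between the groups.

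In complex III, which passes electrons from ubiquinol to cytochrome c, 6 of 8 nuclear members were lower. The changes reached -1.77 ± 0.26 for the hinge protein Uqcrh and -1.51 ± 0.19 for Uqcrb. Uqcrc1, a core protein, did not pass (-0.28 ± 0.21, adjusted p = 0.293), nor did Uqcrq (-0.68 ± 0.30, adjusted p = 0.0685). The mitochondrial subunit mt-Cytb was at 14500, 15200 and 11200 CPM in wildtype and 7250, 8100 and 10200 CPM in Braf vehicle (-0.68 ± 0.22, adjusted p = 0.0166). It missed the threshold in 3 of 12 alternatives.

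Complex IV, cytochrome c oxidase, was lower for 10 of 14 nuclear members, Cox8b and Cox6b2 left out, and for mt-Co1 (-0.78 ± 0.21, adjusted p = 0.00479). Cox6c, a ubiquitous small subunit, had the smallest adjusted p of all members: 381, 393 and 270 CPM in wildtype against 99.3, 108 and 88.2 CPM in Braf vehicle (-1.82 ± 0.17, adjusted p = 2.53e-07). The furthest differences were in isoforms known from muscle, brown fat and testis. Cox7a1, the muscle and brown fat isoform, was at 39.9, 61.6 and 37.1 CPM in wildtype and 1.29, 0.567 and 1.29 CPM in Braf vehicle (-5.45 ± 1.0, adjusted p = 0.000251). Cox6a2, its counterpart for Cox6a1 in muscle, was at 54.7, 44.4 and 73.6 CPM against 1.24, 0.103 and 1.55 CPM (-5.89 ± 1.69, adjusted p = 0.00776). Cox8b, whose promoter is printed above, held 8362 counts in the wildtype libraries and 0 in Braf vehicle. It was at least 2910-fold lower, taking 3 counts over the Braf group as the floor. The exact 95% interval of the ratio starts lower, at 2360, and both cover counting error only. Cox6b2, the testis isoform, was at 6.53, 6.57 and 6.23 CPM against 0, 1.24 and 0.155 CPM. These isoforms stood beside the muscle and brown fat markers of the wildtype libraries, and the part of those tissues was not tested. Among the widely expressed partners Cox7a2 (-1.61 ± 0.19), Cox7b (-1.43 ± 0.22), Cox8a (-0.69 ± 0.22) and Cox6b1 (-0.66 ± 0.20) were lower, whereas Cox6a1 did not pass (-0.38 ± 0.25, adjusted p = 0.216). Cox7a2l, which joins complexes III and IV into supercomplexes, also did not pass (0.16). Ndufa4, a subunit of complex IV despite its name, was at 360, 374 and 259 CPM in wildtype and 143, 183 and 102 CPM in Braf vehicle, which did not overlap but missed the threshold (-1.21 ± 0.54, adjusted p = 0.073). Ndufa4l2, its relative known to be induced by hypoxia, was at 13.5, 16.1 and 8.44 CPM against 0, 0 and 0.103 CPM. Its 739 counts against 2 gave a ratio of 385 (exact 95% interval 106 to 3190, counting error only).

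Complex V, the ATP synthase, had 9 of 18 nuclear members lower and a median log2 change of -0.45. Among them Atp5e (-1.35 ± 0.22), Atp5k (-1.29 ± 0.25), Atp5j2 (-1.18 ± 0.22) and Atp5h (-0.94 ± 0.14) are small subunits of the stalks and the membrane part. The catalytic core was closer between the groups: Atp5a1 was at 967, 1070 and 989 CPM against 762, 807 and 748 CPM (-0.39 ± 0.14, adjusted p = 0.0304), and Atp5b at 1010, 1300 and 1060 CPM against 1180, 1370 and 1110 CPM (0.12, overlapping). Atp5a1 missed the threshold in 5 of 12 alternatives. The 3 genes of the c ring, which encode the same mature protein, did not pass: Atp5g1 -0.50 ± 0.30, Atp5g2 0.31 ± 0.13 and Atp5g3 -0.39 ± 0.27. Atp5g2 was at 30.9, 32.3 and 27.9 CPM in wildtype and 39.4, 39.9 and 33.4 CPM in Braf vehicle, and was the member whose Braf libraries all lay above wildtype.

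**Figure D3:**
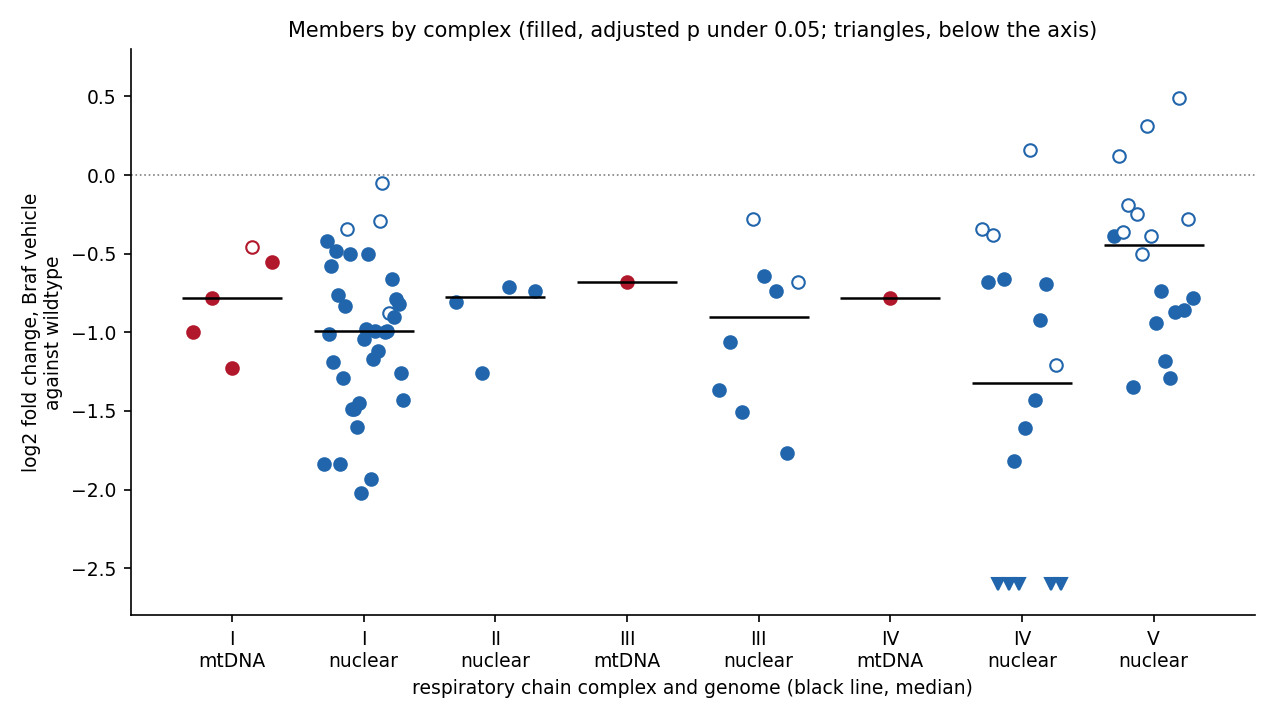
Log2 fold change of Braf vehicle against wildtype for the 88 members that passed the filter, by complex and genome; filled points have an adjusted p under 0.05, black lines are medians, and triangles mark the 5 complex IV isoforms that lie below the axis (Cox7a1, Cox6a2, Cox8b, Cox6b2 and Ndufa4l2). Filled points are all below 0, and complex V holds the most open points.

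Members were lower with and without each promoter motif. Of 17 NRF1 motif holders tested, 10 were lower (median log2 change -0.81), against 43 of 51 without the motif (-0.99). Of 16 ETS motif holders 15 were lower (-0.91), against 38 of 52 (-0.91), and of 8 YY1 motif holders 8 were lower (-0.84), against 45 of 60 (-0.93). The counts without the NRF1, ETS or YY1 motif include Cox8b, whose difference was fixed by the filter. Of all genes tested 22.8% were lower. These counts are a description without a test.

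Other genes of the pathway are given beside the all-gene shares of 22.8% lower and 23.7% higher. Of 13 citric acid cycle genes 8 (61.5%) were lower and 0 higher in Braf vehicle, led by the succinyl-CoA ligase subunit Suclg1 (-1.59 ± 0.16, adjusted p = 8.39e-07). Of 7 partner subunits outside the naming rule 6 (85.7%) were lower, among them Usmg5 (-1.33 ± 0.25) and Cox4i1 (-0.57 ± 0.15). The 6 include Cox4i2 (log2 change -4.43), which passed the filter only through the wildtype libraries, so its difference was fixed by the filter. Of 28 assembly factors 10 (35.7%) were lower and 1 higher, led by the copper chaperone Sco1 (-1.78 ± 0.16, adjusted p = 2.14e-07). Of 77 mitochondrial ribosome genes 13 (16.9%) were lower and 6 (7.79%) higher, both below the all-gene shares. Of 10 regulators of nuclear subunit genes 4 (40%) were higher, including Pprc1 (1.76 ± 0.29), Gabpb1 (1.10 ± 0.18) and Nrf1 (0.71 ± 0.16, adjusted p = 0.00161), and 1 was lower, Ppara (-5.23 ± 0.98). Of 22 genes for mitochondrial transcription and RNA handling 5 (22.7%, near the all-gene share) were higher, among them Dhx30 (0.83 ± 0.13), and 2 lower, Tfb1m (-1.27 ± 0.31) and Tfb2m (-0.58 ± 0.19). Of 4 mitochondrial rRNA and tRNA genes that passed the filter, mt-Tp (-1.93 ± 0.28) and mt-Rnr1 (-0.83 ± 0.25) were lower.

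Among the tumor lines in vehicle, the libraries of each KO were set against Braf, in a fit of the 24 tumor libraries with 15634 genes and 86 members (7 mitochondrial, 79 nuclear). These comparisons share the 3 Braf libraries. With Arid1a KO, the mitochondrial members were lower in level without passing the test. They summed to 2.23, 2.42 and 2.63% of counts, all below the 3.49 to 3.81% of Braf, and the nuclear sum of 0.691 ± 0.0199% overlapped that of Braf. The 3 fibroblast markers (Dcn, Dpt and Col1a1) summed to 1030, 165 and 230 CPM in these libraries against 8.44, 1.75 and 58.8 CPM in Braf, and 1 of the 3, Dcn, was higher (7.08 ± 1.52, adjusted p = 0.0196). The part of these markers in the result was not tested. Of the 7 mitochondrial genes 5 did not overlap between the groups, with 12.3% of all genes not overlapping in that direction. The largest of these were mt-Nd1 at 2860, 3030 and 3510 CPM against 4420, 4810 and 5430 CPM (-0.64 ± 0.24, adjusted p = 0.145) and mt-Co1 at 8300, 8680 and 8630 CPM against 13500, 12200 and 13400 CPM (-0.61 ± 0.20, adjusted p = 0.0863). By edgeR 0 of 86 members were called, against 0.979% of all genes higher and 2.65% lower, and 10 had an unadjusted p under 0.05. DESeq2 called 5, all lower: mt-Co1, mt-Cytb, Cox6a1, Ndufs4 and Uqcrc1. Cox6a1, the general isoform of that complex IV subunit, was nearest the threshold at 80.4, 78.3 and 108 CPM against 135, 217 and 141 CPM (-0.88 ± 0.24, adjusted p = 0.0502, and 0.00784 to 0.223 over 13 alternatives). Without Braf line B52482, 3 members were called (Cox6a1, Ndufs4 and Ndufs6). The all-gene shares above are those of the edgeR fit of 24 libraries, and those of DESeq2 and of the fit without B52482 are not given.

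With Arid2 KO, 0 of 86 members were called by edgeR, 6 had an unadjusted p under 0.05, and DESeq2 called 1, Ndufs5; of all genes 0.0064% were higher and 0.0448% lower. The mitochondrial sum of 3.40 ± 0.394% overlapped that of Braf, and the median log2 change was -0.05 for mitochondrial and 0.03 for nuclear members. The groups did not overlap for 5 members that were higher and 3 that were lower, against 6.65% and 7.98% of all genes. Ndufa4 stood out in level, at 25.1, 57.2 and 56.8 CPM against 143, 183 and 102 CPM in Braf. The groups did not overlap, but the spread over all tumor groups was wide (-1.62 ± 0.58, adjusted p = 0.242). Ndufs5, a small complex I subunit, was at 13.9, 9.34 and 9.75 CPM against 4.88, 0.618 and 3.04 CPM (1.95 ± 0.57, adjusted p = 0.15). A level this low is uncertain. Genes such as Ndufs5 have processed copies elsewhere in the genome, and the part of such copies in this level was not tested.

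With Smarcb1 KO, the mitochondrial sum of 2.05, 3.31 and 2.46% also lay below the 3.49 to 3.81% of Braf in every library. By edgeR 2 members were higher and 2 lower in vehicle, against 6.93% and 11.2% of all genes. One of the higher members, Ndufa4l2, passed the filter only through Smarcb1 KO libraries and is given as a description: without such genes 1 of 84 members was higher and 2 were lower, against 6.89% and 11.1%. Ndufa4l2 was at 2.14, 1.5 and 0.215 CPM against 0, 0 and 0.103 CPM in Braf, and its 81 counts against 2 gave a ratio of 37.6 (exact 95% interval 10.1 to 316, counting error only). Ndufs5 was at 10.5, 13.2 and 9.6 CPM (1.96 ± 0.57, adjusted p = 0.0258). Both were low in absolute level. Ndufc2, a complex I subunit of the membrane arm, was lower at 39.3, 44.3 and 46.8 CPM against 60.8, 64.9 and 56.9 CPM (-0.49 ± 0.13, adjusted p = 0.0144). mt-Cytb was lower at 3870, 6620 and 4860 CPM against 7250, 8100 and 10200 CPM (-0.74 ± 0.22, adjusted p = 0.0262). None of the 3 passed in every alternative: a fit of the compared groups alone and the fit without line BS53736 called none of them. With Ndufa4l2 counted, leaving out BS53958 gave 8 members, Ndufs5 no longer among them, and DESeq2 gave 10. The all-gene shares of those fits are not given. Without Braf B48051 Ndufc2 and mt-Cytb missed the threshold, without Braf B47275 Ndufc2 did, without Braf B52482 Ndufs5 and mt-Cytb did, and without BS53965 mt-Cytb did. In BS53965 the 3 endothelium markers (Pecam1, Cdh5 and Kdr) summed to 666 CPM in vehicle and 57.3 CPM under CKI, against 12.8 CPM or less in all other tumor libraries, and 2 of the 3 were called higher in Smarcb1 KO vehicle. The fibroblast markers summed to 0.664, 0.194 and 0.344 CPM, below Braf, with Col1a1 called lower (adjusted p = 0.0226). The part of these markers was not tested. Line BS53958 differed from the other Smarcb1 KO lines in Ndufa4, at 135 CPM against 17.1 in BS53736 and 20 in BS53965, and this gene was not called (-1.30 ± 0.58, adjusted p = 0.12). Of 77 mitochondrial ribosome genes 5 were higher, led by Mrps16 (0.79 ± 0.18), and 0 were lower. The count of 5 is near the all-gene share of 6.93% higher, and 11.2% of all genes were lower. The inhibitor of reverse ATP synthase activity Atpif1 was higher (0.93 ± 0.23).

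The response to CKI was read by setting the CKI library of each line against vehicle. The same line gave both libraries, and the fit with the line as a replicate block is printed where it changes a call. In the Braf lines mitochondrial RNAs were lower in level under CKI. Their sum was 2.6, 2.84 and 2.18% of counts under CKI against 3.68, 3.49 and 3.81% in vehicle, and it was lower in all 3 lines, with log2 changes of -0.51, -0.29 and -0.95 and no overlap between the groups. Nuclear sums moved by -0.21, -0.25 and -0.11. The fibroblast markers summed to 629, 20 and 1850 CPM under CKI against 8.44, 1.75 and 58.8 CPM in vehicle, higher in all 3 lines, with 0 of 3 called without the block and 1, Dcn, with it, and their part in the result was not tested. mt-Cytb had the furthest change, at 4310, 4830 and 4420 CPM against 7250, 8100 and 10200 CPM (-0.91 ± 0.22, adjusted p = 0.175). Of the 7 mitochondrial genes 5 did not overlap. Over all members 19 did not overlap lower and 1 higher, against 9.02% and 7.27% of all genes. By edgeR 0 of 86 members were called without the block, 7 had an unadjusted p under 0.05, and 0% of all genes were called. With the block 0 members were again called, 17 had an unadjusted p under 0.05, and 1.42% of all genes were higher and 1.06% lower, whereas DESeq2 without the block called 1 member, mt-Cytb (adjusted p = 0.00205).

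In the lines with Arid1a KO, whose mitochondrial levels were already low in vehicle, the mitochondrial sum moved by -0.07, -0.08 and -0.55 on the log2 scale. The fibroblast markers summed to 755, 615 and 1520 CPM under CKI against 1030, 165 and 230 CPM in vehicle, and their part was not tested. The groups did not overlap for 22 members that were lower and 9 that were higher, against 22.7% and 23.8% of all genes. Atp5g2 was the member called, lower at 23.5, 26.7 and 24.3 CPM against 33.8, 38 and 33.8 CPM (-0.49 ± 0.14, adjusted p = 0.0257), with 6.84% of all genes lower and 7.08% higher. It missed the threshold when any of BA45198, BA47473 or BA49112 was left out (adjusted p = 0.114 to 0.154). With the line as a replicate block 13 members were called, 10 lower and 3 higher, against 15.3% and 17% of all genes. The 10 lower were subunits of complex V (Atp5a1, Atp5c1, Atp5g1, Atp5g2, Atp5g3 and Atp5j), of complex I (Ndufa2 and Ndufv2) and of complex IV (Cox7a2l and Cox7b). The 3 higher were Cox6a1 (0.67 ± 0.15, blocked adjusted p = 0.00847), Sdha (0.44 ± 0.11) and Ndufa1 (0.57 ± 0.17). Cox6a1, low in these lines in vehicle, stood at 154, 131 and 131 CPM under CKI. Of 77 mitochondrial ribosome genes 21 were lower and 0 higher in the blocked fit, against 15.3% and 17% of all genes.

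In the lines labelled Arid2 KO, the mitochondrial sum moved by -0.51, -0.68 and -0.26 and did not overlap between CKI (2.31 to 2.74%) and vehicle (3.08 to 3.84%). The fibroblast markers summed to 154, 381 and 453 CPM under CKI against 2.03, 0.459 and 2.55 CPM in vehicle, with 0 of 3 called without the block and 2, Col1a1 and Dcn, with it, and their part was not tested. Over all members 16 did not overlap lower, among them 6 of 7 mitochondrial genes, and 2 higher, against 9.17% and 9.9% of all genes. By edgeR 0 of 86 members were called, 15 had an unadjusted p under 0.05, DESeq2 called 2 (mt-Cytb and Ndufa2), and 0.0959% of all genes were higher and 0.0448% lower. With the line as a block 3 were called, against 3.52% of all genes higher and 2.76% lower: Ndufa4 higher, Ndufa2 lower (-0.65 ± 0.14, blocked adjusted p = 0.0264) and Atp5d lower (-0.50 ± 0.12, blocked adjusted p = 0.0417). Ndufa4 rose in every line, from 25.1, 57.2 and 56.8 CPM to 83.4, 148 and 113 CPM (1.37 ± 0.30, blocked adjusted p = 0.028). It did not overlap between CKI and vehicle, and without the block it was not called (adjusted p = 0.321). In line AB52980 the muscle markers given above were higher under CKI, and in the other lines of this genotype they summed to 1.5 to 4.25 CPM. The part of these markers in the change of Ndufa4 was not tested.

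In the Smarcb1 KO lines the mitochondrial sum moved by 0.78 in BS53736, -0.18 in BS53958 and 0.23 in BS53965, so the lines did not share a direction. Under CKI it stood at 3.67, 2.94 and 3.39% of counts, against 2.05, 3.31 and 2.46% in vehicle. The fibroblast markers were at 5.83 CPM or less in all 6 libraries. By edgeR 0 of 86 members were called without the block, 2 had an unadjusted p under 0.05, DESeq2 called 0, and 0.0256% of all genes were higher and 0.0064% lower. With the block 0 were called, 12 had an unadjusted p under 0.05, and 0.486% of all genes were higher and 0.569% lower. The groups did not overlap for 2 members that were higher and 1 that was lower, against 3.93% and 5.46% of all genes. BS53736, the line with the change of 0.78, is not among the shallow libraries. Its mt-Cytb went from 3870 to 6840 CPM, mt-Nd4 from 1090 to 2150 CPM and mt-Nd5 from 2440 to 4660 CPM. Without BS53736 the test called mt-Co2, from the stretch that was counted in the shallow libraries only. It passed the filter only through those CKI libraries, so its difference was fixed by the filter.

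**Figure D4:**
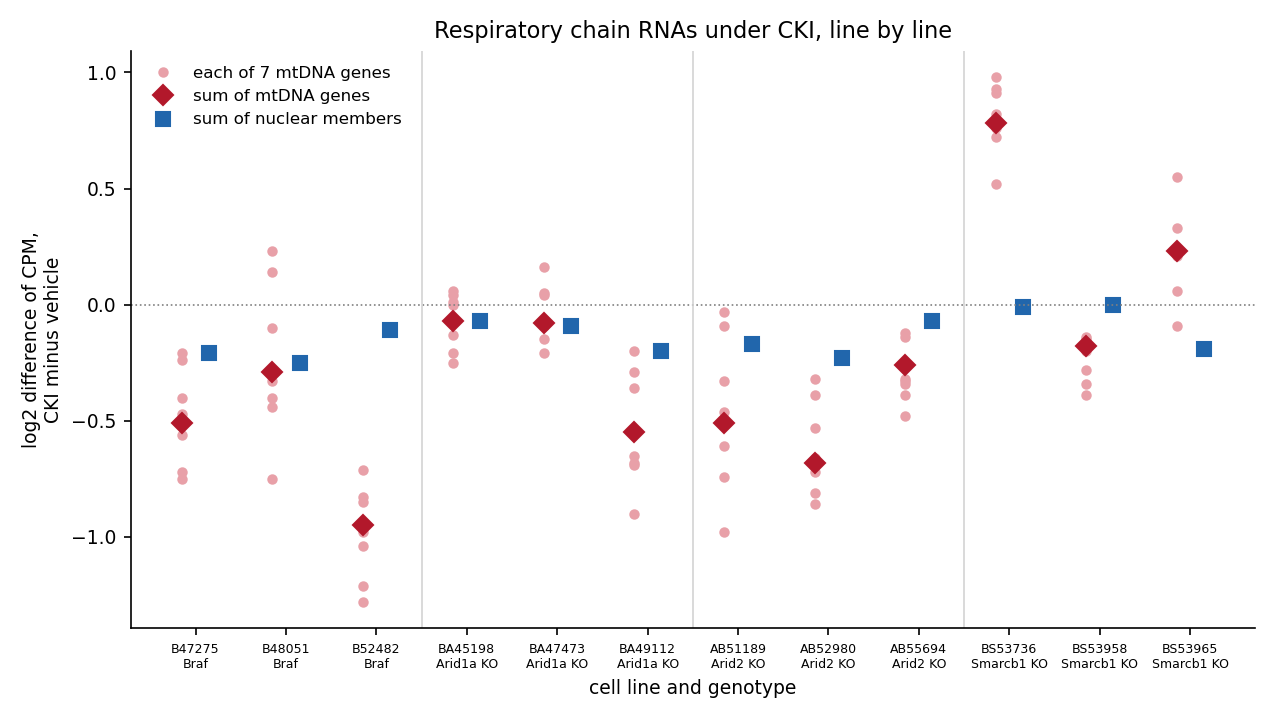
Log2 difference of CPM, CKI minus vehicle, in each of 12 lines: small red points are the 7 counted mitochondrial genes, diamonds their sum with the other mitochondrial members, and squares the sum of nuclear members. The diamonds lie below 0 in all Braf, Arid1a KO and Arid2 KO lines and above 0 in Smarcb1 KO lines BS53736 and BS53965, and the squares stay between -0.25 and 0.

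Over the mean of the 4 genotypes 9 members were lower under CKI and 0 were higher, against 13.6% of all genes in each direction. The 10.5% of members lower was below the all-gene share in this fit; with the line as a block it was 29.1%, above the all-gene share of 21%. Of the fibroblast markers Col1a1 and Dcn were called higher over this mean, and the thyroid follicle markers summed higher under CKI in 12 of 12 lines; their part was not tested. Of the mitochondrial genes mt-Cytb (-0.42 ± 0.11, adjusted p = 0.00952), mt-Nd2 (-0.38 ± 0.11, adjusted p = 0.0199) and mt-Nd1 (-0.34 ± 0.12, adjusted p = 0.043) were lower. mt-Nd2 fell in 11 of 12 lines, mt-Cytb in 10 and mt-Nd1 in 9. Over 21 alternatives mt-Nd1 missed the threshold in 12, mt-Nd2 in 4 and mt-Cytb in 2. None of these 3 passed without lines BS53958 and BS53965 (adjusted p = 0.128, 0.167 and 0.339), where the remaining Smarcb1 KO line was BS53736. mt-Nd5 and mt-Nd6 were near 0 (-0.08 and -0.07).

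Of the nuclear members, Ndufa2 and Atp5g2 were lower in every alternative run. Ndufa2, a matrix arm subunit of complex I, fell in 12 of 12 lines (-0.44 ± 0.10, adjusted p = 0.00418). In Braf lines it went from 67.8, 83.1 and 70.1 CPM to 49.5, 61.3 and 49.9 CPM, and in Arid2 KO lines from 74, 101 and 66.8 CPM to 42.9, 55.8 and 53.3 CPM. Atp5g2 fell in 10 of 12 lines (-0.27 ± 0.07, adjusted p = 0.0071). Its exceptions were in the Smarcb1 KO lines BS53958 and BS53965, where it went from 34.7 and 32.3 CPM to 45 and 38.3 CPM. Atp5a1, the alpha subunit of the ATP synthase, fell in 12 of 12 lines (-0.24 ± 0.07, adjusted p = 0.0222). The other 3 were Uqcrq of complex III (-0.47 ± 0.15) and the complex IV subunits Cox5a (-0.34 ± 0.11) and Cox5b (-0.28 ± 0.10), each lower in 10 of 12 lines. Over 21 alternatives Uqcrq missed the threshold in 6, Cox5a in 7, Cox5b in 10 and Atp5a1 in 3. Leaving out BA49112 left 3 members, leaving out AB51189 or BS53965 left 5, and leaving out both shallow lines left 6, with no mitochondrial gene.

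With the line as a replicate block 29 members were called, 25 lower and 4 higher, against 21% and 21.9% of all genes. Complex V made up 10 of the lower members, with Atp5g3 first (-0.37 ± 0.06, blocked adjusted p = 0.000803), and 3 were the mitochondrial genes named above. Without lines BS53958 and BS53965 the blocked fit called 15, with no mitochondrial gene. The 4 higher members were Ndufa4, Ndufb2, Ndufb3 and Ndufs4. Ndufa4 rose in 11 of 12 lines (blocked 0.83 ± 0.15, blocked adjusted p = 0.00182, and 0.0935 without the block). In Smarcb1 KO lines it went from 17.1, 135 and 20 CPM to 65.6, 149 and 82.3 CPM, and in Arid1a KO lines from 112, 95.4 and 93.9 CPM to 140, 123 and 132 CPM. Without BS53958 alone, the unblocked fit also called it (adjusted p = 0.000574).

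**Figure D5:**
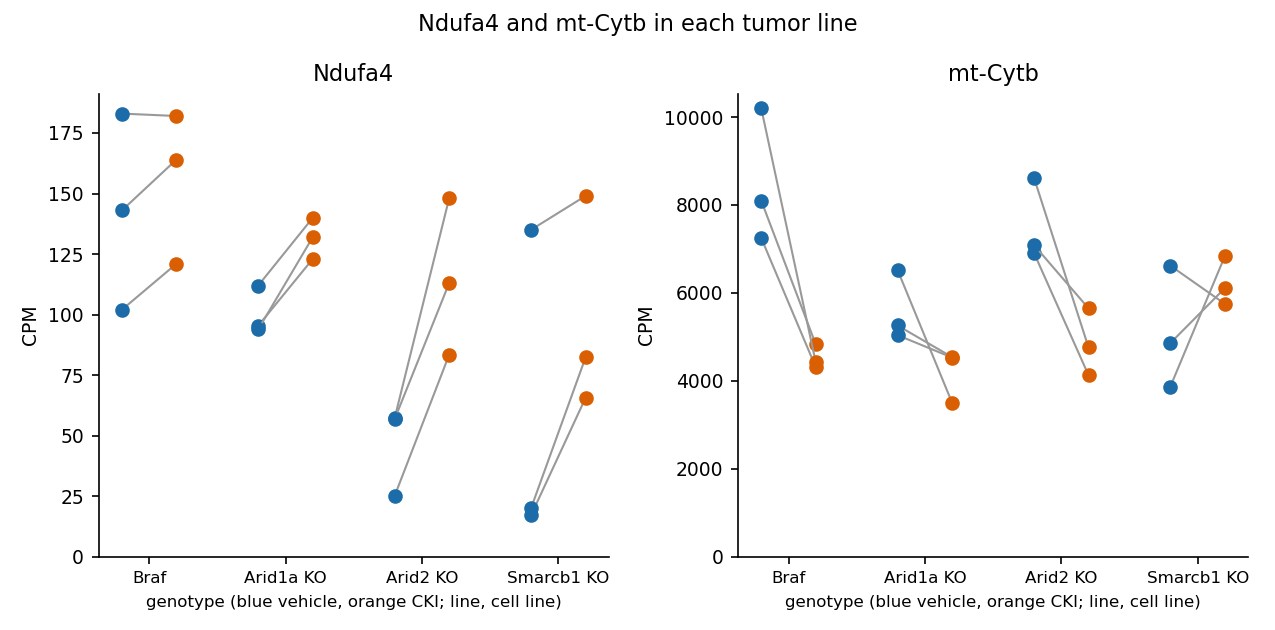
CPM of Ndufa4 (left) and mt-Cytb (right) in vehicle (blue) and under CKI (orange), with a line joining the libraries of each cell line, 3 lines per genotype. Ndufa4 rises from 57.2 CPM or less in 5 lines, and mt-Cytb falls in all lines but Smarcb1 KO BS53736 and BS53965.

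Neighbouring lists are given for the mean of the 4 genotypes, beside 13.6% of all genes called in each direction (21% lower and 21.9% higher with the block). Of 77 mitochondrial ribosome genes 20 (26%) were lower and 0 higher, or 41 (53.2%) and 0 with the block, led by Mrpl52 (-0.68 ± 0.12, adjusted p = 0.00101). The mitochondrial rRNAs mt-Rnr2 (-0.47 ± 0.13, adjusted p = 0.0145) and mt-Rnr1 (-0.39 ± 0.11, adjusted p = 0.0146) were lower. Of 6 partner subunits 3 (50%) were lower: Cox4i1 (-0.24 ± 0.06), cytochrome c (Cycs, -0.54 ± 0.15) and Cyc1 (-0.46 ± 0.14). Of 22 genes for mitochondrial RNA 4 (18.2%) were lower, with Lrpprc, which stabilises mitochondrial mRNAs, at -0.51 ± 0.11 (adjusted p = 0.0024), and 2 were higher, Grsf1 (0.35 ± 0.08) and Mtpap (0.22 ± 0.07). Nrf1 was lower (-0.35 ± 0.08, adjusted p = 0.00622), and of 13 citric acid cycle genes 2 (15.4%, near the all-gene share) were higher, Fh1 and Ogdh, and 0 lower.

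Whether the CKI response of a KO differed from that of Braf was tested directly. By edgeR 0 members and 0 of all genes were called for Arid1a, Arid2 or Smarcb1 KO (0%), and 1, 0 and 7 members had an unadjusted p under 0.05. DESeq2 called 1 member for Smarcb1 KO, mt-Cytb, and 0 for the others. With the line as a block 0 members were called, 3, 2 and 9 had an unadjusted p under 0.05, and 0.115%, 0% and 0.0064% of all genes were higher and 0.032%, 0% and 0.0256% lower. The median difference over the 7 mitochondrial genes was 0.34, 0.10 and 0.70 on the log2 scale. For Smarcb1 KO the 7 included 5 mitochondrial genes.

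Under CKI the KO lines were also set against Braf. For Arid1a KO and Arid2 KO 0 members were called by edgeR, 3 had an unadjusted p under 0.05 in each, and DESeq2 called 0 and 1; of all genes 0.243% and 0.0192% were higher and 0.493% and 0.0448% lower. For Smarcb1 KO 7 members were higher and 3 lower, against 10.1% and 13.1% of all genes. Without Ndufa4l2, which again passed the filter only through Smarcb1 KO libraries, 6 of 85 were higher and 3 lower, against 9.92% and 13.2% of genes kept in the same way. Ndufa4l2 was at 0.205, 1.98 and 0.594 CPM against 0.0353, 0 and 0 CPM, and its 31 counts against 1 gave a ratio of 59.5 (exact 95% interval 9.91 to 2420, counting error only). Ndufs5 was higher as in vehicle (1.89 ± 0.57). Ndufb3, a membrane arm subunit, was at 77, 46.9 and 38.9 CPM against 24.8, 35.1 and 26.9 CPM (0.90 ± 0.25, adjusted p = 0.0165). Atp5l was at 17.1, 59.2 and 37.7 CPM against 14.9, 14.2 and 18.9 CPM (1.24 ± 0.32, adjusted p = 0.0113), high only in the shallow libraries of BS53958 and BS53965. Of the 79 nuclear members it was the 1 that lay above all 22 other tumor libraries in both. Cox6c (-0.56 ± 0.16), Ndufa1 (-0.69 ± 0.23) and Ndufc2 (-0.38 ± 0.13) were lower. Without lines BS53958 and BS53965 only Ndufb3 passed, and a fit of the compared groups alone called 0. With Ndufa4l2 counted, leaving out Braf B47275 left 3 members, and leaving out Braf B52482 or BS53965 left 5. The 7 mitochondrial genes were not called (median 0.35), and 3 did not overlap, all higher. Over all members 15 did not overlap higher and 4 lower, against 14.7% and 18% of all genes. Of the 3 fibroblast markers Col1a1 (adjusted p = 0.00314) and Dcn (adjusted p = 0.00825) were lower in Smarcb1 KO than in Braf under CKI, and their part was not tested.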

How the data were processed

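The labels name TRIzol extraction and a TruSeq library kit. The authors deposited raw counts per gene for 27 libraries in a single table, and the values are whole numbers with no normalization. The submitters' processing notes name mm9, STAR 2.4, HTSeq 0.6.1 and DESeq2 without roles; the annotation, strand setting and treatment of reads with several matches: not given in the sources used here. How such reads are counted can change the level of genes with near-identical copies, and its part in these data was not tested.

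Counts were fitted with edgeR 4.0.16 in R 4.3.3 (TMM factors, filterByExpr, glmQLFit and glmQLFTest), over 27 libraries (16821 genes) for wildtype and over the 24 tumor libraries (15634 genes) otherwise, with Benjamini-Hochberg adjustment over all genes tested and a threshold of 0.05. Errors of log2 changes are SE, and those of levels SD with n = 3. DESeq2 1.42.0, RLE size factors, other filters, other sets of libraries and leaving out each line were alternatives; those without lines BS53958 and BS53965 under the block were chosen after seeing the data. Vehicle and CKI libraries come from the same line, and the deviations of paired libraries from their group means correlated in all 12 lines (r = 0.242 to 0.782), so the line also served as a replicate block (8 residual degrees of freedom, 16 without). Each line counts as 1 replicate; whether wildtype libraries came from separate animals is not given, so p-values against them measure the spread between these samples.

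The members and lists were chosen with earlier results of these data known. Genes are named by rule: all mitochondrial members, complex II, nuclear core subunits of complex I, tissue isoforms, up to 6 called nuclear members in each direction per comparison and up to 3 from each other list; further genes, such as Ndufa4 and those nearest a threshold, were chosen after their values were seen. A result that falls under the rule is not reported here. Exact intervals of count ratios are at 95%, and a group at 0 was set to a floor of 3 counts. Members that passed the filter only through the group where they were high were found by filtering again without that group, and are described without a test. The fits were tested on simulated data.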

Additional observations from a re-analysis of the deposited data

Results flagged for a closer look

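The 6 mitochondrial genes from mt-Co2 to mt-Nd4l did not pass the filter of the reported fits, yet were well above the near-0 level of all other libraries, the controls included, in the CKI libraries of 2 Smarcb1 KO lines. In BS53958 they stood at 77.6 CPM for mt-Co2, 19.4 CPM for mt-Atp8, 64.6 CPM for mt-Atp6, 78.4 CPM for mt-Co3, 8.07 CPM for mt-Nd3 and 3.46 CPM for mt-Nd4l. In BS53965 they stood at 66.5 CPM for mt-Co2, 19.3 CPM for mt-Atp8, 63.9 CPM for mt-Atp6, 68.9 CPM for mt-Co3, 8.02 CPM for mt-Nd3 and 3.27 CPM for mt-Nd4l. The third Smarcb1 KO line under CKI, BS53736, was at or near 0 like the rest. These are also the shallowest libraries, and whether their reads were handled in another way was not tested.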

How the results depend on the processing

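For Braf vehicle against wildtype, the count of 68 members ranged from 55 to 69 over the libraries left out. For Arid1a KO against Braf in vehicle (0 called) the count was 1 with RLE size factors, 1 with a filter of 1 CPM in 6 libraries, 5 with DESeq2, 2 with all 27 libraries, and 0 to 3 over the lines left out. For Arid2 KO DESeq2 called 1 in vehicle and 1 under CKI. Counts here include Cox8b, Cox6b2 and Ndufa4l2. Counts in the fit without Smarcb1 KO line BS53736 can also include mt-Co2, which passed its filter only through the shallow CKI libraries. The 11 for Smarcb1 KO under CKI, given below, came from that fit. For Smarcb1 KO in vehicle (4) the count was 2 without a filter, 10 with DESeq2, 0 in a fit of the compared groups alone, and 1 to 8 over the lines left out. For Smarcb1 KO under CKI (10) it was 0 in a fit of the compared groups alone, 1 without lines BS53958 and BS53965, and 3 to 11 over the lines left out. DESeq2 called 1 member for CKI in Braf, 3 in Arid1a KO, 2 in Arid2 KO and 1 for the response of Smarcb1 KO minus that of Braf. For CKI in Arid1a KO (1) the count was 0 without a filter, 5 in a fit of the compared groups alone and 0 without any 1 line. In Smarcb1 KO it was 0 to 1, where the 1 was mt-Co2 without BS53736, fixed by the filter. With the line as a replicate block the count was 13 in Arid1a KO, 3 in Arid2 KO, and 29 over the mean of the 4 genotypes, or 15 without lines BS53958 and BS53965; it changed no other count of 0. Over that mean (9 called) the unblocked count was 3 to 13 over the lines left out. Near 0, the change of mt-Nd5 turned to 0.06 and of mt-Nd6 to 0.09 without lines BS53958 and BS53965, to 0.07 and 0.10 with the replicate block as well, and mt-Nd6 ranged from -0.17 (without BS53736) to 0.01 (without BS53958). The log2 ratio of mitochondrial to nuclear counts for Braf against wildtype was 0.29 by mean log2 CPM, Cox8b and Cox6b2 included, against -0.05 by sums. Leaving out lines, the change of that ratio under CKI ranged from -0.57 to -0.17 in Braf, -0.17 to 0 in Arid1a KO and 0.12 to 0.6 in Smarcb1 KO. The cause of these shifts was not tested. Depth limits the 2 shallow libraries and genes under a few CPM, such as Ndufa4l2 and Ndufs5.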
